A study of Mus musculus with 8 samples.

Results

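The 9 genes described here make, carry and remove retinoic acid: Stra6, Rdh10, Dhrs3, Aldh1a2, Crabp1, Crabp2, Cyp26a1, Cyp26b1 and Cyp26c1. They were taken by name from the RNA-seq count table, and all 9 are among its 32567 genes. The series holds 8 samples of undifferentiated and differentiated mouse embryonic stem cells (ESC), and the 4 poly-A RNA-seq libraries, 1 per condition, are used here. Wild-type ESC came from the parental line, and Htt-null ESC carried the Hdh ex4/5 allele, a targeted inactivation of the huntingtin gene Htt, on both chromosomes. Each line was also grown as embryoid bodies for 8 days, with 5 µM retinoic acid (RA) from day 4, then dissociated, plated and collected after 2 h. These cells are called RA-DIFF. ESC had been kept without feeder cells for 4 passages before embryoid bodies were formed. Each genotype is represented by 1 cell line, so the line and the genotype cannot be told apart. The ESC received no added RA, and RA-DIFF differs from ESC in the embryoid body culture, the loss of pluripotency and the added RA together. Their parts in a difference cannot be told apart either.

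Retinoic acid is made inside cells from vitamin A (retinol) and acts by binding nuclear receptors on DNA. Retinol enters some cells through a membrane receptor, is oxidised to retinal in a reversible step, and is then oxidised irreversibly to retinoic acid. Small binding proteins hold retinoic acid in the cytoplasm, and cytochrome P450 enzymes of the CYP26 family break it down, so that in the embryo zones of synthesis and zones of breakdown lie side by side and pattern the hindbrain, the somites and the limbs.

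Htt was read first as the check of the labels. Htt stood at 164 CPM (counts scaled to the library total) in wild-type ESC, 114 CPM in Htt-null ESC, 74.3 CPM in RA-DIFF labelled wild type and 96.3 CPM in RA-DIFF labelled Htt-null. In ESC the Htt-null library was the lower one, but in RA-DIFF the library labelled Htt-null was the higher one, so Htt went against its label there. In a supplementary table that gives log2 CPM by condition, the column for wild-type RA-DIFF followed the deposited library labelled Htt-null, and the differences had a standard deviation of 0.00422 over 1452 genes. Against the library of its own label this was 0.816 over 1464 genes. The column for Htt-null RA-DIFF in turn followed the library labelled wild type, with 0.00465 over 1464 genes. Against its own label it had 0.835 over 1452 genes. Both ESC conditions matched the columns of their own labels. The RA-DIFF libraries are named by their deposited labels throughout, without a judgement on which naming is right. If these labels are exchanged, the sign of each genotype difference in RA-DIFF given below turns. Each ratio of RA-DIFF over ESC given by label would then set RA-DIFF of one line against ESC of the other. The libraries held between 63617410 and 110569127 counts, and a gene with 0 counts could have had up to between 0.0271 and 0.0472 CPM. The pluripotency markers, such as Pou5f1 and Nanog, summed to 5281 CPM (for marker sums, scaled also by the TMM factors explained next) in wild-type and 4535 CPM in Htt-null ESC, and to 61.4 and 16.0 CPM in RA-DIFF labelled wild type and Htt-null, so the stages went with their labels.

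Of the 9 genes, 7 lay above the expression limit used here, a log2 CPM over 0 when averaged over the 4 libraries, as did 14417 genes in all. Cyp26a1 and Cyp26c1 lay below it. Cyp26b1 passed only through its level in RA-DIFF, so it had to differ between the stages, and counts over the 7 describe those 7 genes and support nothing further. A log2 ratio between libraries is called past the limit when it is beyond 0.75 in either direction in a gene above the expression limit. There is no test behind this, since 1 library per condition gives no spread between cultures. Ratios are of CPM scaled by TMM (trimmed mean of M-values) factors with a prior count of 2, and the intervals after them are exact 95% intervals that cover counting error only.

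The retinol receptor Stra6, the oxidising enzyme Rdh10, the binding protein Crabp2 and the breakdown enzyme Cyp26b1 were past the limit higher in RA-DIFF than in ESC at both labels. In 7 of the 7 genes above the expression limit both RA-DIFF libraries lay above both ESC libraries, where 45.8% of all 14417 genes had that order and 36.6% the opposite one. For Aldh1a2 this order rests on 4.03 CPM (3.68 to 4.43) in RA-DIFF labelled wild type beside 3.63 CPM (3.25 to 4.05) in wild-type ESC, whose counting intervals overlap, and with upper-quartile scaling this log2 ratio turned to -0.19. Of the genes below the expression limit, Cyp26a1 had the same order and Cyp26c1 did not. The 7 genes above the limit fell into 2 sets by which RA-DIFF library was the higher one. The binding proteins Crabp1 and Crabp2 and the breakdown enzyme Cyp26b1 were higher in the library labelled wild type, while Stra6, Rdh10, Dhrs3 and Aldh1a2 were higher in the other, labelled Htt-null.

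**Figure D1:**
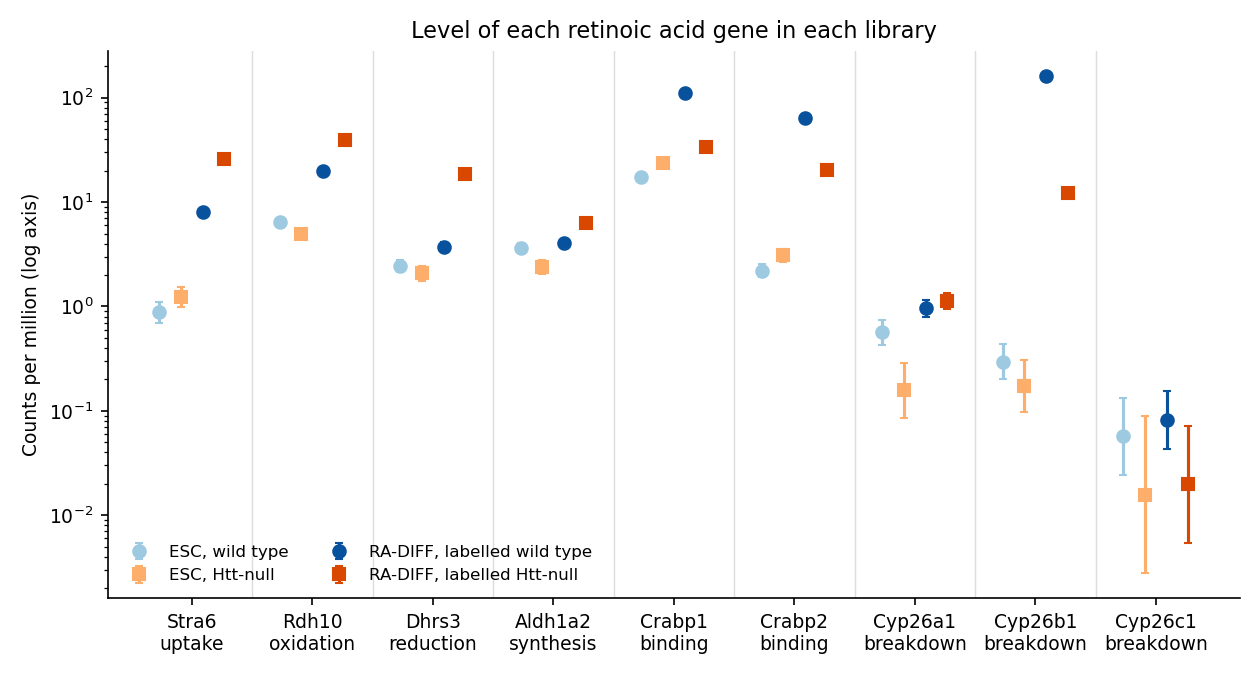
Level of each of the 9 genes in each library, as CPM on a log axis, with the 95% counting interval as bars (hidden by the point where narrow) and 1 library per point. Cyp26b1 lies below 1 CPM in both ESC libraries and at 160 and 12.3 CPM in RA-DIFF, whereas Cyp26c1 stays below 0.1 CPM in all 4 libraries.

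Stra6 encodes the membrane receptor that takes up retinol from its carrier in the blood, the retinol binding protein. The gene (ENSMUSG00000032327) lies on the + strand at chr9:58063788-58153996 in GRCm38. It had 77 counts in wild-type ESC, 79 in Htt-null ESC, 896 in RA-DIFF labelled wild type and 2610 in RA-DIFF labelled Htt-null. Both ESC libraries were low and the RA-DIFF library labelled Htt-null was the highest. RA-DIFF exceeded ESC by a log2 ratio of 3.14 (2.83 to 3.53) in the cells labelled wild type. In the cells labelled Htt-null it did so by 4.43 (4.13 to 4.79). The ESC libraries differed by 0.44 (-0.02 to 0.92), an interval that takes in 0. In RA-DIFF the library labelled Htt-null was 3.31-fold higher than the other, a log2 ratio of 1.73 (1.62 to 1.84). Only 2.73% of the genes above the expression limit had a ratio as high.

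Rdh10 and Dhrs3 encode enzymes of opposite direction. Rdh10 oxidises retinol to retinal, the step that limits retinoic acid synthesis in the embryo, and Dhrs3 reduces retinal back to retinol. Rdh10 (ENSMUSG00000025921, + strand, chr1:16105774-16133734) had 567 counts in wild-type ESC, 316 in Htt-null ESC, 2209 in RA-DIFF labelled wild type and 3961 in RA-DIFF labelled Htt-null. Its log2 ratio of RA-DIFF over ESC was 1.59 (1.46 to 1.73) in the cells labelled wild type and 3.05 (2.89 to 3.22) in the cells labelled Htt-null. Rdh10 was lower in Htt-null than in wild-type ESC, by a log2 ratio of -0.43 (-0.64 to -0.23) that stayed inside the limit. In RA-DIFF it was 2.04-fold higher in the library labelled Htt-null, with a log2 ratio of 1.03 (0.95 to 1.10).

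Dhrs3 (ENSMUSG00000066026, + strand, chr4:144892827-144928209) had 215 counts in wild-type ESC, 132 in Htt-null ESC, 413 in RA-DIFF labelled wild type and 1875 in RA-DIFF labelled Htt-null. The last library stood apart from the other three. The ratio of RA-DIFF over ESC stayed inside the limit in the cells labelled wild type, at 0.57 (0.33 to 0.82). In the cells labelled Htt-null it was 3.22 (2.98 to 3.50), 9.32-fold. Dhrs3 thus had the largest RA-DIFF difference in favour of the library labelled Htt-null among the 9 genes, 5.14-fold or a log2 ratio of 2.36 (2.21 to 2.53), which 1.08% of the genes above the limit reached. In ESC its genotype ratio was -0.29 (-0.62 to 0.03).

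Aldh1a2 encodes the retinal dehydrogenase that makes most of the retinoic acid of the early embryo, in the mesoderm beside the neural tube. It (ENSMUSG00000013584, + strand, chr9:71215789-71296243) had 319 counts in wild-type ESC, 151 in Htt-null ESC, 446 in RA-DIFF labelled wild type and 642 in RA-DIFF labelled Htt-null. Its levels varied least among the 7 genes above the limit. In the cells labelled wild type RA-DIFF and ESC could not be told apart at this depth, with a log2 ratio of 0.11 (-0.10 to 0.33), which becomes -0.19 with upper-quartile scaling. The ratio was 1.49 (1.24 to 1.76) in the cells labelled Htt-null. The genotype ratio was -0.66 (-0.96 to -0.38) in ESC and 0.71 (0.54 to 0.89) in RA-DIFF by the labels, both inside the limit and of opposite sign.

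Crabp1 and Crabp2 encode the cytoplasmic proteins that bind retinoic acid, and Crabp2 is known to hand it to the nuclear receptor. Crabp1 (ENSMUSG00000032291, + strand, chr9:54764748-54773110) had 1540 counts in wild-type ESC, 1498 in Htt-null ESC, 12153 in RA-DIFF labelled wild type and 3414 in RA-DIFF labelled Htt-null. Crabp2 (ENSMUSG00000004885, + strand, chr3:87948666-87953376) had 193, 196, 7004 and 2042 counts in the same order. Both genes were highest in RA-DIFF labelled wild type. The log2 ratio of RA-DIFF over ESC of Crabp1 was 2.61 (2.53 to 2.69) in the cells labelled wild type and, inside the limit, 0.59 (0.51 to 0.68) in the cells labelled Htt-null. For Crabp2 these ratios were 4.80 (4.61 to 5.03) and 2.78 (2.57 to 3.01). Between the RA-DIFF libraries both genes differed by nearly the same amount, a log2 ratio of -1.64 (-1.70 to -1.59) for Crabp1 and -1.59 (-1.66 to -1.52) for Crabp2, that is 3.13-fold and 3.01-fold lower in the library labelled Htt-null. In ESC both were slightly higher in the Htt-null library, by 0.37 (0.27 to 0.47) and 0.43 (0.14 to 0.73), inside the limit.

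Crabp1 took 92.9% of the reads per kilobase of the pair in wild-type ESC and 92.6% in Htt-null ESC. In RA-DIFF its share was 74.1% in the library labelled wild type and 73.4% in the one labelled Htt-null. The balance between the binding proteins therefore moved with the stage, towards Crabp2, and by less than a percentage point between the libraries of a stage.

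The CYP26 enzymes oxidise retinoic acid to more polar products, and Cyp26a1 is a classical direct target of the retinoic acid receptors, which bind direct repeats of a hexamer. The starts of Cyp26a1 and Cyp26b1 are shown because the former is known to answer retinoic acid through such repeats and the latter is the member whose RNA differed most in these libraries. In the RefSeq windows of GRCm38.p6, from 250 bases before to 50 after a start, the canonical hexamer AGGTCA was searched on both strands, together with the variant AGTTCA that Cyp26a1 holds, the variant GGGTCA and lastly the variant GGTTCA, and a repeat was counted with 1, 2 or 5 bases between (DR1, DR2 and DR5). The stretch before the Cyp26a1 start is chr19:37697558-37697797 on the + strand, with its DR5 in capitals. For Cyp26b1 it is chr6:84593909-84594060 on the - strand, written in the direction of the gene, and no capitals appear because no hexamer was found. Both are cut where the GENCODE annotation begins the transcript.
Cyp26a1: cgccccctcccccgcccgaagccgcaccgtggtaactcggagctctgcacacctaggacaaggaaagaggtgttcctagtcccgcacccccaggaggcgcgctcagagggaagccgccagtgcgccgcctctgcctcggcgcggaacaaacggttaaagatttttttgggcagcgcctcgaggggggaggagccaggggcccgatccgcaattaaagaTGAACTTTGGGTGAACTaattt
Cyp26b1: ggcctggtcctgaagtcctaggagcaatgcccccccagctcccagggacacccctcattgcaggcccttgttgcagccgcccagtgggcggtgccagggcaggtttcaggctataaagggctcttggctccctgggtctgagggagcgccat
The DR5 of Cyp26a1 lies on the strand opposite to the gene, from 32 to 16 bases before the RefSeq start (chr19:37697776-37697792). A DR5 of these letters is present in 0.0974% of the 32851 windows of the genome, and a DR1, DR2 or DR5 in 0.588%. Since AGTTCA was searched as the form that Cyp26a1 holds, its DR5 was bound to be found. These shares therefore do not measure how unusual that repeat is. Windows were given for 7 of the 9 genes, Crabp2 and Rdh10 being the exceptions, and none of the others held a repeat. A match of letters is a description of the sequence and no measure of binding.

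Cyp26a1 RNA was low in all 4 libraries, below the expression limit. The gene (ENSMUSG00000024987, + strand, chr19:37697808-37701528) had 50 counts in wild-type ESC, 10 in Htt-null ESC, 106 in RA-DIFF labelled wild type and 114 in RA-DIFF labelled Htt-null. The Htt-null ESC library was the lowest, and the RA-DIFF libraries were alike within counting error, with a log2 ratio of 0.29 (-0.10 to 0.69) between them. RA-DIFF over ESC was 0.69 (0.22 to 1.23) in the cells labelled wild type and 2.75 (1.99 to 4.02) in those labelled Htt-null, so that the gap between the responses came from the ESC level, with a genotype ratio of -1.77 (-3.06 to -0.91) in ESC.

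Cyp26b1, the enzyme known for clearing retinoic acid in the hindbrain, the limb and the fetal gonad, showed the widest range of the 9 genes. It (ENSMUSG00000063415, - strand, chr6:84571414-84593908) had 26 counts in wild-type ESC, 11 in Htt-null ESC, 17738 in RA-DIFF labelled wild type and 1242 in RA-DIFF labelled Htt-null. RA-DIFF over ESC was 8.94 (8.49 to 9.66) on the log2 scale in the cells labelled wild type, rank 45 from the top of 14417 genes. It was 6.05 (5.38 to 7.23) in the cells labelled Htt-null, rank 237. These are about 492-fold and 66.3-fold, and both rest on few ESC counts. Between the RA-DIFF libraries Cyp26b1 was 12.5-fold lower in the one labelled Htt-null, with a log2 ratio of -3.65 (-3.73 to -3.57), rank 15 from the bottom. In ESC the ratio of 11 to 26 counts was just past the limit at -0.76, but its counting interval of -2.00 to 0.24 takes in 0.

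Cyp26c1 lies 4409 bases before Cyp26a1 on chromosome 19 (ENSMUSG00000062432, + strand, chr19:37685581-37693398). It had 5 counts in wild-type ESC, 1 in Htt-null ESC, 9 in RA-DIFF labelled wild type and 2 in RA-DIFF labelled Htt-null. At this depth no difference was detectable in any of the 4 comparisons, and all 4 counting intervals take in 0.

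Within the CYP26 family Cyp26a1 led in wild-type ESC and Cyp26b1 in both RA-DIFF libraries, while in Htt-null ESC, with 10 counts of Cyp26a1 and 11 of Cyp26b1, the lead could not be resolved. Cyp26a1 took 76.6% of the family's reads per kilobase in wild-type ESC and 65.7% in Htt-null ESC, out of only 81 and 22 family counts. Cyp26b1 took 98.3% in RA-DIFF labelled wild type and 79.8% in RA-DIFF labelled Htt-null, out of 17853 and 1358 counts. The difference between the RA-DIFF shares came from Cyp26b1, since the counts of Cyp26a1 were 106 and 114.

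Compared per kilobase of merged exons within a library, Crabp1 was the highest of the 9 genes in all 4 libraries, at 22.1 TMM-scaled CPM per kilobase in wild-type ESC, 28.6 in Htt-null ESC, 135 in RA-DIFF labelled wild type and 43.2 in RA-DIFF labelled Htt-null. In wild-type ESC the next 3, Crabp2 at 1.68, Aldh1a2 at 1.62 and Rdh10 at 1.57, could not be ordered within their counting intervals. In Htt-null ESC Rdh10 at 1.16 and Aldh1a2 at 1.02 could not be ordered either. In RA-DIFF labelled wild type the order was Crabp1, Crabp2 at 47.3, Cyp26b1 at 29.6, Rdh10 at 4.74 and Aldh1a2 at 1.76, followed by Stra6 at 1.37 and Dhrs3 at 1.26, whose intervals overlap. In RA-DIFF labelled Htt-null it was Crabp1, Crabp2 at 15.7, Rdh10 at 9.67, Dhrs3 at 6.51, Stra6 at 4.55 and Aldh1a2 at 2.88, and only then Cyp26b1 at 2.36. Cyp26b1 was thus at rank 3 in one RA-DIFF library and at rank 7 in the other, while the binding proteins led in both. The places between depend on the length used. Per kilobase of the longest transcript, Stra6 at 2.60 lay above Aldh1a2 at 1.76 and Dhrs3 at 1.58 in RA-DIFF labelled wild type. With the label Htt-null Stra6 at 8.61 and Dhrs3 at 8.15 could then not be ordered within their counting intervals, nor could Aldh1a2 at 2.88 and Cyp26b1 at 2.81. In wild-type ESC the values were then 2.39 for Crabp2, 1.82 for Rdh10 and 1.62 for Aldh1a2.

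The comparison of RA-DIFF with ESC asks which of these genes differ after RA differentiation. In the cells labelled wild type, 5 of the 7 genes above the limit were past the limit higher in RA-DIFF (Stra6, Rdh10, Crabp1, Crabp2 and Cyp26b1) and none lower. Among all genes above the limit 32.4% were higher and 24.9% lower. The median log2 ratio was 2.61 for the 7 genes and 0.11 for all 14417. In the cells labelled Htt-null, 6 of the 7 were higher, where Dhrs3 and Aldh1a2 joined and Crabp1 stayed inside the limit, and none was lower, against 32.9% of all genes higher and 23.5% lower. The medians were 3.05 and 0.16. With upper-quartile scaling the balance over all genes turned, to 3704 higher and 4666 lower in the cells labelled wild type, from 4675 and 3585, and to 3517 and 4856 in those labelled Htt-null, from 4739 and 3383, while the counts of the 7 genes stayed at 5 and 6 higher and none lower. With the RA-DIFF labels exchanged all 7 were past the limit higher in both lines. Of all 14417 genes 4754 were then higher and 3444 lower in wild-type cells, and 4620 and 3482 in Htt-null cells. The log2 ratio in wild-type and Htt-null cells became 4.87 and 2.70 for Stra6, 2.93 and 0.86 for Dhrs3, 0.96 and 2.24 for Crabp1, 3.21 and 4.37 for Crabp2, and 5.29 and 9.70 for Cyp26b1. Rdh10 became 2.62 and 2.02, and Aldh1a2 0.82 and 0.78.

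**Figure D2:**
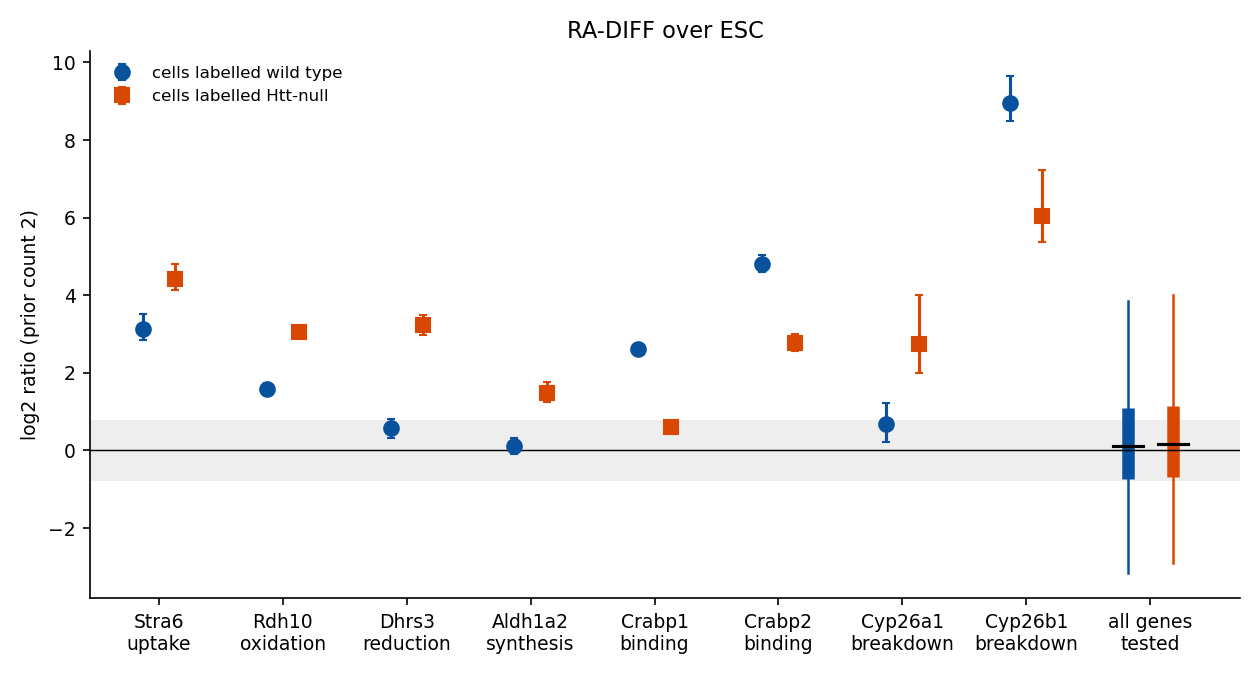
Log2 ratio of RA-DIFF over ESC (prior count 2) in the cells labelled wild type (circles) and labelled Htt-null (squares), with 95% counting intervals, for 8 of the 9 genes (Cyp26c1, at 9 counts or fewer, is left out). The grey band is the limit of 0.75, and at the right the thin line spans the 5th to 95th percentile, the thick bar the middle 50% and the black line the median of all 14417 genes; Cyp26b1 at 8.94 and 6.05 and Crabp2 at 4.80 lie farthest from 0.

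Between the ESC libraries Cyp26a1, below the expression limit, had the log2 ratio farthest from 0 of the 9 genes, at -1.77 (-3.06 to -0.91) from 10 counts in Htt-null and 50 in wild-type ESC. None of the 7 genes above the limit was past it higher in Htt-null ESC and 1, Cyp26b1 at 11 against 26 counts, was past it lower, where 3.93% of all genes were higher and 2.64% lower. The median of this log2 ratio was -0.29 for the 7 genes and -0.04 for all. Inside the limit, the counting intervals left out 0 for Rdh10 and Aldh1a2, which were lower in Htt-null ESC, and for Crabp1 and Crabp2, which were higher. Cyp26b1 was no longer past the limit with library size alone, with upper-quartile scaling, or when an assumed dispersion was added.

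In RA-DIFF 6 of the 7 genes were past the limit between the libraries, where 18.3% of all genes were. Stra6, Rdh10 and Dhrs3 were higher with the label Htt-null and Crabp1, Crabp2 and Cyp26b1 lower, against 11.0% and 7.37% of all genes. Among these genes, Stra6 for uptake and the enzymes Rdh10 and Dhrs3 thus lay opposite to the binding proteins and Cyp26b1. Aldh1a2 at 0.71 had the sign of Stra6. Breakdown is Cyp26b1 alone here, since Cyp26a1 at 0.29 (-0.10 to 0.69) and Cyp26c1 had intervals that take in 0. The split did not extend by role to the other retinoid genes described below. Of the uptake and transport genes, Stra6l was past the limit lower with the label Htt-null and Rbp4 past it higher. Of the retinol and retinal enzymes, Rdh5 at -0.67 and Akr1b8 at 0.57 had opposite signs inside the limit. The median over the 7 genes was 0.71, that of the gene between the sets, beside -0.01 for all genes. All these signs turn if the RA-DIFF labels are exchanged. When the assumed dispersion of 0.1 from the Methods was added to the limit, Rdh10 was no longer counted, which left 2 genes higher, where 4.81% of all genes were.

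**Figure D3:**
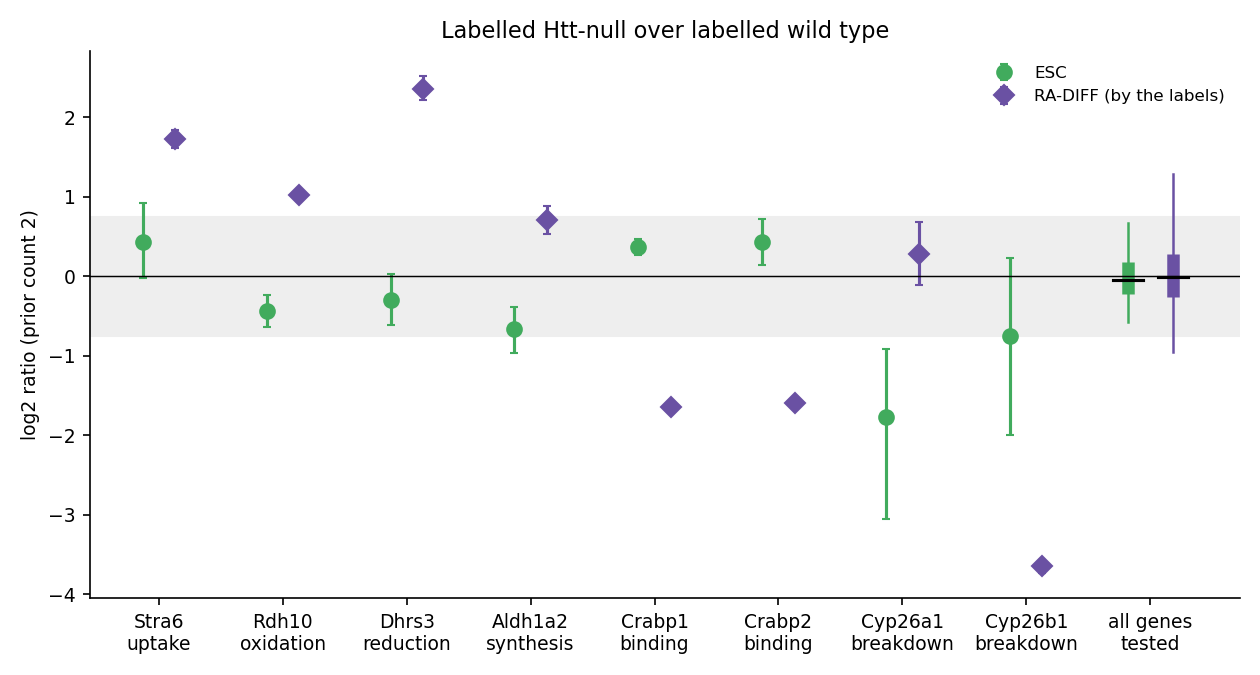
Log2 ratio between the genotypes by the labels, Htt-null over wild type (prior count 2), in ESC (circles) and RA-DIFF (diamonds), with 95% counting intervals, for 8 of the 9 genes. The grey band is the limit of 0.75 and the bars at the right show all 14417 genes as percentiles and median. In RA-DIFF the values run from 2.36 for Dhrs3 to -3.65 for Cyp26b1, and they change sign if the RA-DIFF labels are exchanged.

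Markers of other cell types moved with the same RA-DIFF comparison. They are given as sums of TMM-scaled CPM, and a marker is counted as higher or lower where its counting interval leaves out 0. All 10 fibroblast and mesenchyme markers, such as Col1a1, Acta2 and Twist1, were higher with the label Htt-null, summing to 2415 CPM against 640 CPM. Of the 6 markers of paraxial and lateral mesoderm 5 were higher there too and Tcf15, at 90 and 102 counts, did not differ detectably, with sums of 60.6 and 30.2 CPM. All 8 neuron markers were lower in that library, and their sum was 1216 against 2707 CPM. The neural progenitor markers summed to 2514 and 2534 CPM, but 4 of 6 were lower, among them Sox1 and Pax6, and 2, Nes and Fabp7, higher. The neural crest markers summed to 213 CPM there and 435 CPM in the other library, with 4 of 5 lower and Sox10 higher. Of the 8 pluripotency markers, whose sums are given above, 7 were lower with the label Htt-null and 1 higher. The endothelium markers summed to 88.2 CPM with the label Htt-null and 23.8 CPM in the other library, with 4 of 6 higher and 1 lower, and the visceral endoderm markers to 11.6 and 7.93 CPM, with 2 of 7 higher and 1 lower. In ESC the mesenchyme sum was 27.0 CPM in Htt-null and 43.0 CPM in wild-type cells, with 6 of 10 lower and 1 higher in the former. The visceral endoderm sums were 23.6 and 44.9 CPM in the same order, with 4 of 7 lower and 2 higher. The sums of the other lists in this order were 26.3 and 38.4 CPM for neural crest, 32.0 and 39.5 CPM for mesoderm, 53.9 and 41.7 CPM for neural progenitors, 319 and 286 CPM for neurons and 235 and 210 CPM for endothelium. The visceral endoderm sums were mostly Cubn in all 4 libraries, the 1 marker of that list above the expression limit. In ESC the sums were mostly Foxd3 for neural crest, Tcf15 for mesoderm, Stmn2 for neurons and Pecam1 for endothelium. Such sums are no measure of the amount of a cell type. Of the pluripotency markers 6 of 8 were lower in Htt-null ESC and 1 higher. The part of these cell types in the retinoic acid gene differences was not tested, and in bulk RNA fewer cells of a type and less RNA per cell cannot be told apart.

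The RA response of a gene in the cells labelled Htt-null was next compared with its response in the cells labelled wild type. This difference of log2 ratios uses all 4 libraries, and it equals the difference between the genotype ratios in RA-DIFF and ESC. Its counting interval left out 0 in 8 of the 9 genes, but also in 76.4% of all genes above the limit with a count in each library, so at this depth the interval alone singles out little. These intervals are centred on the counts without the prior count, which for Cyp26b1 gives -2.82 in place of -2.89. By the deposited labels Dhrs3, at 2.65 (2.31 to 3.01), and Cyp26b1, at -2.89 (-3.84 to -1.80), were as far from 0 as 1.80% and 1.31% of the 14417 genes. Shares of all genes are given here for the deposited labels only. Crabp1 at -2.02 (-2.13 to -1.90) and Crabp2 at -2.02 (-2.32 to -1.73) had the same difference to 2 decimals, which 4.17% and 4.11% of genes reached. Rdh10 at 1.46, Aldh1a2 at 1.37 and Stra6 at 1.29 were reached by 8.55%, 9.65% and 10.8%. Cyp26a1, below the expression limit, stood at 2.06 (1.15 to 3.25), and the interval of Cyp26c1 took in 0. With the RA-DIFF labels exchanged, the difference, again with the prior count, was -2.07 (-2.42 to -1.73) for Dhrs3 and 4.40 (3.46 to 5.50) for Cyp26b1, and that of Aldh1a2, at -0.05 (-0.37 to 0.29), was no longer detectable. It was then -2.16 for Stra6, -0.60 for Rdh10, 1.27 for Crabp1, 1.16 for Crabp2 and 1.49 for Cyp26a1. The interval of Cyp26c1, at 2.36 (0.09 to 7.70), then left out 0, on between 1 and 9 counts a library, so that the count of genes stayed at 8. The order by size therefore depends on the labels. Stra6 lay nearer to 0 than Crabp1 by the deposited labels and farther from it with them exchanged. Stra6, with an interval of -2.64 to -1.71, and Dhrs3 could then not be ordered within counting error.

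Ratios within a library need no scaling between libraries and set opposing steps of the pathway against each other. The breakdown enzyme Cyp26b1 stood at 0.0345 (0.0222 to 0.0515) of the synthesis enzyme Aldh1a2 per kilobase in wild-type ESC and at 0.0308 (0.0151 to 0.0567) in Htt-null ESC. In RA-DIFF the ratio was 16.8 (15.3 to 18.5) in the library labelled wild type and 0.818 (0.743 to 0.902) in the one labelled Htt-null. Cyp26b1 thus lay far above Aldh1a2 in one RA-DIFF library and slightly below it in the other, and per kilobase of the longest transcript the levels in the latter were 2.81 and 2.88. The ratio leaves out the other enzymes of either step.

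The reducing enzyme Dhrs3 stood at 0.539 (0.458 to 0.632) of the oxidising enzyme Rdh10 in wild-type ESC and at 0.594 (0.481 to 0.730) in Htt-null ESC. In RA-DIFF the ratio was 0.266 (0.239 to 0.295) in the library labelled wild type and 0.673 (0.636 to 0.711) in the one labelled Htt-null. RA-DIFF labelled wild type thus lay below the other 3 libraries. Crabp1 over Crabp2 was 13.2 and 12.6 in wild-type and Htt-null ESC and 2.86 and 2.76 in RA-DIFF labelled wild type and Htt-null, and within each stage the counting intervals overlapped. Cyp26b1 over Cyp26a1 went from 0.193 (0.115 to 0.315) and 0.408 (0.157 to 1.07) in the same ESC libraries to 62.0 and 4.04 in RA-DIFF, and the interval in Htt-null ESC takes in 1.

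**Figure D4:**
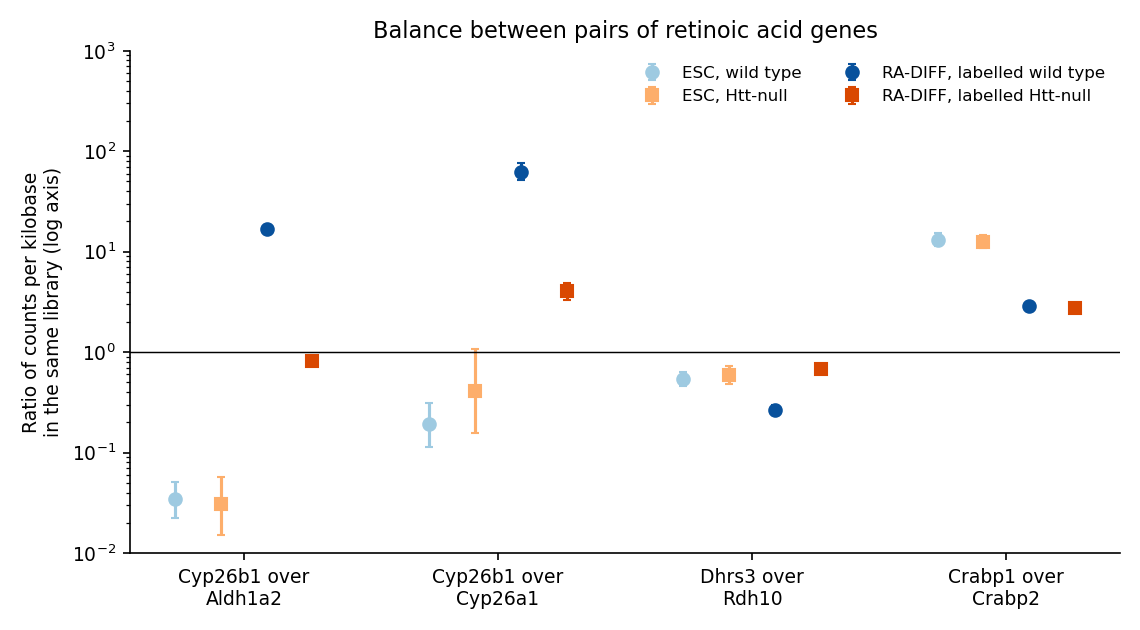
Ratio of counts per kilobase of merged exons between 2 genes of the same library, on a log axis, with 95% counting intervals and a line at 1. Circles are libraries labelled wild type and squares libraries labelled Htt-null. Cyp26b1 over Aldh1a2 runs from 0.0308 to 16.8, while Crabp1 over Crabp2 differs between stages and hardly within them.

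A list of 38 other retinoid genes was read beside the 9, and 37 were in the table and 19 above the expression limit. In the cells labelled wild type 8 of the 19 were past the limit higher in RA-DIFF and 5 lower, beside 32.4% and 24.9% of all genes. These were 8 and 6 in the cells labelled Htt-null, beside 32.9% and 23.5%. In ESC 1 was higher in the Htt-null library and none lower, beside 3.93% and 2.64%. In RA-DIFF by the labels 4 were higher and 2 lower, beside 11.0% and 7.37%, and these directions turn if the labels are exchanged.

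Among carriers, Fabp5, a fatty acid binding protein that also binds retinoic acid, had 379 counts in wild-type ESC, 344 in Htt-null ESC, 6718 in RA-DIFF labelled wild type and 4401 in RA-DIFF labelled Htt-null. Its ratios of RA-DIFF over ESC were 3.77 and 3.08 in the cells labelled wild type and Htt-null. Rbp4, which carries retinol in the blood, was lower in RA-DIFF, at -2.24 and -1.48. Stra6l, a receptor related to Stra6, was at 0.52 in the cells labelled wild type and at -1.54 in those labelled Htt-null, unlike Stra6 itself.

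Aldh1a3, a retinal dehydrogenase like Aldh1a2, had 28 counts in wild-type ESC, 89 in Htt-null ESC, 175 in RA-DIFF labelled wild type and 855 in RA-DIFF labelled Htt-null. It was the gene past the limit in ESC, at 2.01 (1.45 to 2.75), and it had a log2 ratio of 2.46 (2.24 to 2.72) in RA-DIFF by the labels. Per kilobase it stayed below Aldh1a2 in each library, at 1.88 against 2.88 in RA-DIFF labelled Htt-null and at 0.338 against 1.76 in RA-DIFF labelled wild type. Of the retinol and retinal enzymes, Rdh5 was higher in RA-DIFF, at 2.50 and 2.04 in the cells labelled wild type and Htt-null, as was Dhrs4 at 1.01 in both. Rdh14 was past the limit in the cells labelled Htt-null alone, at 0.98 beside 0.47. Adh5, the most abundant gene of the list, was lower at -0.77 and -0.91, and Akr1b8 at -1.82 and -1.71. Rdh11, also abundant, stayed inside the limit at -0.07 and 0.19. Some listed genes below the expression limit reached 100 counts and a ratio beyond 0.75, with values in the same order of -3.07 and -3.35 for Rbp7, 0.79 and 0.78 for Rdh1, 0.48 and 0.78 for Adh7, 1.58 and 4.00 for Aldh1a7, and 2.31 in both for Bco2.

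Of the ester and carotene genes, Lpl, the lipoprotein lipase, had ratios of 0.87 and 2.44 in the cells labelled wild type and Htt-null, and Dgat1, which can esterify retinol, of 0.99 and 0.71. Retsat, the retinol saturase, was lower at -1.35 and -1.29, and Rlbp1, a carrier of retinal, at -1.38 and -3.06. Cyp1b1, a P450 able to oxidise retinol, went with Cyp26b1 in being higher at both labels, with ratios of 3.87 and 5.14, but it differed by 0.60 between the RA-DIFF libraries, inside the limit, with the higher level in the one labelled Htt-null.

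**Figure D5:**
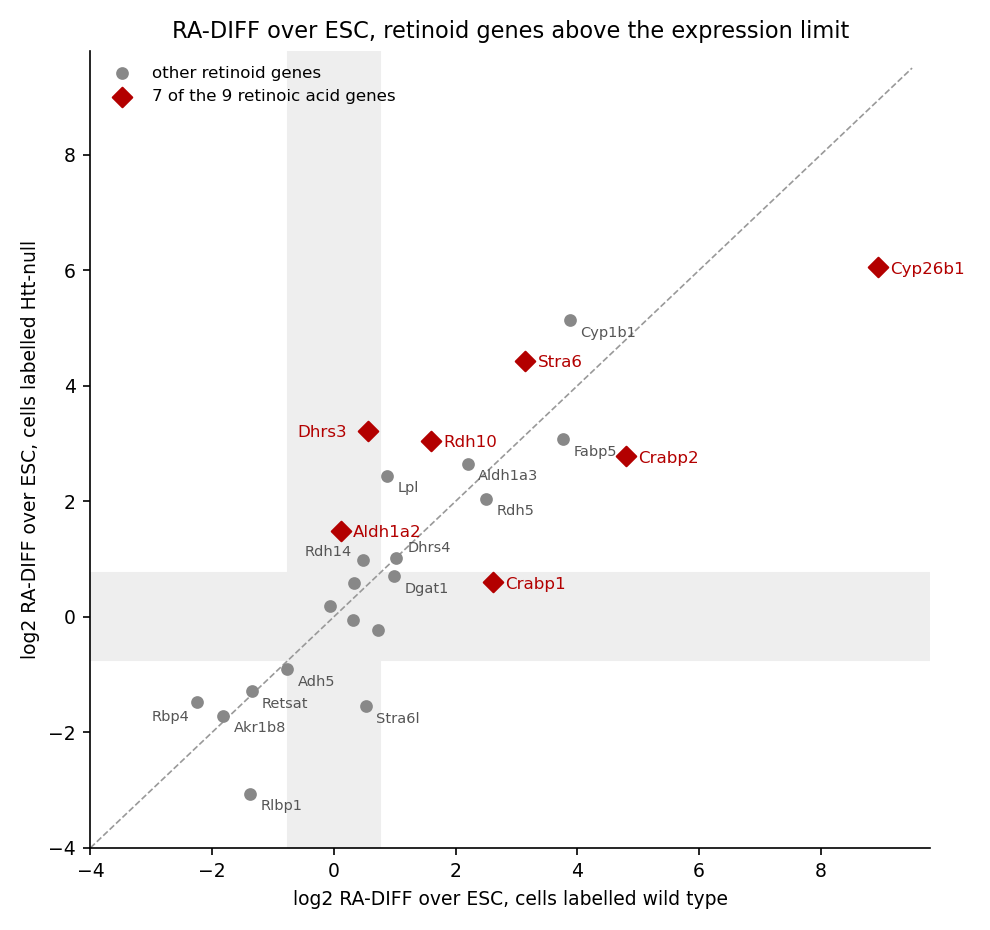
Log2 ratio of RA-DIFF over ESC in the cells labelled Htt-null (vertical) against that in the cells labelled wild type (horizontal), for the 7 retinoic acid genes above the expression limit (diamonds) and for other retinoid genes (circles). The grey bands are the limit of 0.75 and the dashed line marks equal ratios. Crabp1, Crabp2 and Cyp26b1 lie below the line, and Stra6, Rdh10, Dhrs3 and Aldh1a2 above it.

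For each of the 7 genes the 2 genes of most similar pattern were found, by the root mean square difference of log2 CPM over the 4 libraries after centring. For Cyp26b1 they were Lhx9, at 0.381, and Tal2, at 0.512, both transcription factor genes. Lhx9 had 9 counts in wild-type ESC, 7 in Htt-null ESC, 14106 in RA-DIFF labelled wild type and 709 in RA-DIFF labelled Htt-null. For Crabp1 they were Coro1a at 0.0757 and Rbfox3, a nuclear protein of mature neurons, at 0.0960. For Crabp2 they were Srrm3 at 0.0763 and Cbfa2t3 at 0.0770. Stra6 was nearest to Osbpl5 at 0.0279 and Fam212b at 0.0957. Rdh10 was nearest to Pik3r1 at 0.0378 and Gng12 at 0.0731. Dhrs3 was nearest to Mfsd7c at 0.0810 and Scarf2 at 0.116. Aldh1a2 was nearest to Pkd2 at 0.0171 and Camk1 at 0.0548. With 4 libraries such likeness is a description. Cyp26b1 stands farther from its nearest genes than the other 6. It also had the widest range, and its pattern rests on 26 counts in wild-type and 11 in Htt-null ESC.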

How the data were processed

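Poly-A-plus RNA of 4 conditions, 1 library each, was sequenced as 50 bp paired-end reads from a strand-specific dUTP protocol. The authors aligned the reads to GRCm38.p4 with TopHat2 2.0.14, guided by GENCODE M6, counted them per gene with HTSeq 0.6.1 in the intersection-nonempty mode, and deposited raw counts without normalization. No strand option is named for the counting, and the Methods give default settings where nothing else is stated. With a dUTP protocol the HTSeq default would count the strand opposite to the gene, yet the pluripotency markers summed to 5281 TMM-scaled CPM in wild-type ESC. No exon base of the 9 genes is shared with another gene of GENCODE vM21. Nothing was pooled, each column was matched to a sample by name, and the small RNA table was not used here.

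Counts were scaled with TMM factors of edgeR 4.0.16 (R 4.3.3) over the 4 libraries, with a prior count of 2. A quasi-likelihood fit needs replicates and was not made. The fold limit of 0.75 and the expression limit come from the Methods. The exact test at their assumed dispersion of 0.1, and at 0.01, served only as an alternative, and no p-value is printed. Ratio intervals are exact conditional binomial intervals, level intervals are Wilson intervals and intervals of the difference between responses use the normal approximation on log counts without the prior count, all at 95% and for counting error only. Per-kilobase values use merged exons of GENCODE vM21. Other alternatives were DESeq2 1.42.0 size factors, library size alone, upper-quartile factors, a prior count of 0.5, a fold limit of 1, no expression limit, longest transcripts and exchanged RA-DIFF labels. Python 3.11.15 was used for tables, with pandas 2.3.3, scipy 1.17.1, numpy 2.4.6 and, for plots, matplotlib 3.10.9.

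The members, the other retinoid genes and the marker lists were chosen with earlier results of these data known. Values are given for the 9 members and Htt, for listed genes past the fold limit in at least 1 RA comparison that reached 100 counts in the higher library, for the 5 listed genes with the most counts, and for the 2 nearest patterns of each member. A listed gene that this rule names is not reported here.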

Additional observations from a re-analysis of the deposited data

Results flagged for a closer look

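In 4 genes the genotype ratio had opposite signs in ESC and in RA-DIFF, with each counting interval on its own side of 0. For Rdh10 this log2 ratio was -0.43 at the ESC stage and 1.03 at the RA-DIFF stage, and for Aldh1a2 it was -0.66 and 0.71. For Crabp1 it was 0.37 and -1.64, and for Crabp2 0.43 and -1.59. With 1 library per condition the difference between the stages was not tested. The share of all genes that meet the same rule is not given, so the 4 genes are a description only. The RA-DIFF values follow the deposited labels, against which Htt itself goes, and with these labels exchanged the signs of the stages would be the same in all 4 genes.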

How the results depend on the processing

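No paired analysis was possible because each condition has 1 library, and for the same reason no replicate could be left out. With the RA-DIFF labels exchanged the genotype log2 ratio in RA-DIFF reversed to -1.73 for Stra6, -1.03 for Rdh10, -2.36 for Dhrs3, 1.64 for Crabp1, 1.59 for Crabp2 and 3.65 for Cyp26b1. DESeq2 size factors and a prior count of 0.5 changed no count of members past the limit. The 1 member past the limit in ESC, Cyp26b1, fell to 0 with library size alone, upper-quartile factors, a fold limit of 1 or an assumed dispersion of 0.01 or 0.1, and became 3 with no expression limit. At a dispersion of 0.1 the genes counted numbered 2227 against 3585 (lower in RA-DIFF, cells labelled wild type), 2020 against 3383 (lower, cells labelled Htt-null), 96 against 566 and 62 against 381 (ESC, higher and lower in the Htt-null line), and 694 against 1579 and 378 against 1062 (higher and lower in RA-DIFF by the labels). The other retinoid genes counted were then 5 against 8 (higher in RA-DIFF, cells labelled wild type) and 2 against 4 (higher in RA-DIFF labelled Htt-null). A fold limit of 1 left 302 higher and 172 lower genes in Htt-null ESC and 653 lower in RA-DIFF by the labels. With no expression limit the genes past the fold limit were 10162 higher and 8674 lower in the cells labelled wild type, where they had been 4675 and 3585. They were 9567 and 9945 in the cells labelled Htt-null (4739 and 3383), 5217 and 2943 in ESC (566 and 381), and 4204 and 4384 in RA-DIFF by the labels (1579 and 1062). With the longest transcript as length the share of Crabp1 was 90.3% and 89.9% in wild-type and Htt-null ESC and 66.8% and 66.0% in RA-DIFF labelled wild type and Htt-null, and in RA-DIFF labelled wild type the shares of Cyp26a1 and Cyp26b1 were 1.48% and 98.4%. Upper-quartile factors moved the median RA ratio of all genes from 0.11 to -0.20 in the cells labelled wild type and from 0.16 to -0.25 in those labelled Htt-null, and the ratios of the members by at most 0.41. The counts of Cyp26a1, Cyp26c1 and, in ESC, Cyp26b1 limit what could be detected for them.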
